A study of Danio rerio with 9 samples.

Results

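Zebrafish larvae homozygous for mutations in both copies of the fam177a1 gene were compared with larvae homozygous for a mutation in the first copy alone. The comparison used 6 of the 9 RNA-seq libraries of the series. Of these, 3 came from double mutants (fam177a1a stl700 with fam177a1b stl746) and 3 from single mutants (fam177a1a stl700). Both mutant genotypes therefore carry stl700, and stl746 is the difference between them that the labels give. With all libraries, 21694 of the 28802 gene rows in the count table passed a filter on low counts and were tested. The 3 wild-type libraries, headed AB in the table (the name of a common wild-type line) and carrying neither allele, serve only as a reference level and help estimate the spread. Each library was made from a pool of 7 entire larvae aged 8 days after fertilization, from total RNA depleted of ribosomal RNA, so a value is an average over animals and tissues. The labels do not say whether libraries of a genotype came from separate clutches or crosses, so a p-value measures the spread between these libraries, which may be technical.

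FAM177A1 is a small protein of the Golgi complex, the organelle that sorts and modifies secreted and membrane proteins. Zebrafish carry a second copy of many genes from an ancient genome duplication, and a second copy can cover for the loss of the first. Several programmes named below are textbook ones. Interferon, released after cells sense viral or misplaced DNA and RNA, switches on antiviral effectors through signalling that includes the STAT2 and IRF9 proteins. SREBP2, a transcription factor that leaves the endoplasmic reticulum for the Golgi to be cut and activated, switches on the enzymes of cholesterol synthesis when sterols run low.

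The targeted row, fam177a1, checks the labels of both mutant genotypes at once. Its counts were 8, 14 and 11 in single-mutant libraries 1 to 3 and 15, 9 and 8 in double-mutant libraries 1 to 3, against 669, 490 and 487 in the wild type. All 6 mutant libraries lay far below the wild type and overlapped each other, at 0.458, 0.829 and 0.628 CPM (counts scaled by library total) in single and 0.89, 0.501 and 0.418 CPM in double mutants. The difference between the mutant genotypes was -0.10 on the log2 scale (SE 0.35, edgeR's adjusted p = 0.920). This row does not separate single from double mutants, and a row for fam177a1b was not analysed here.

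The mutant libraries held 16978591 to 19276480 counts, which puts 3 counts, the limit that a count of 0 allows, at 0.157 to 0.178 CPM. Of 28 marker genes of larval tissues, 27 lay above that limit in every one of the 9 libraries, and hbba1, a globin gene, was listed at 0 in all of them. The row of the signal recognition particle RNA took 6.98%, 5.98% and 6.19% of counts in double and 5.41%, 5.07% and 4.79% in single mutants. Leaving such small-RNA rows out of the scaling gave 367 called genes, 355 of them among the 362 described below.

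Single-mutant library 1 stood apart from its own genotype. Across genes, its log2 levels correlated at 0.981 with each of single-mutant libraries 2 and 3, and at 0.988, 0.985 and 0.988 with double-mutant libraries 1 to 3. Single-mutant libraries 2 and 3 correlated at 0.990 with each other, and the double mutants at 0.991 to 0.993 among themselves. These correlations run over genes, which are not independent replicates, and are given as descriptions. List counts are therefore given with and without that library.

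With all libraries, 362 of 21694 tested genes differed between double and single mutants at an edgeR adjusted p under 0.05, which is 1.67% of those tested. Of these, 145 were higher in double mutants (0.668%) and 217 were lower (1.0%). At an unadjusted p under 0.05, 3894 of the 21694 genes differed. DESeq2's Wald test and limma-voom called 883 and 321 of the 21694 genes at an adjusted p under 0.05. Without single-mutant library 1, 3860 of 21984 genes were called (17.6%), 1796 of them higher (8.17%) and 2064 lower (9.39%). The genes called both ways with the same sign numbered 361, of which 144 were higher and 217 lower in double mutants, and none changed sign. The 1 gene called only with the library was hsp70.2, and 3499 genes were called only without it, 1652 higher and 1847 lower. The fits share 8 libraries, and the difference between their counts was not itself tested.

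The added calls came with a smaller spread. The common biological coefficient of variation, the spread between libraries of a genotype beyond counting error, was 11.4% with all libraries and 8.55% without single-mutant library 1. In all 361 genes called both ways, the 3 double-mutant levels lay wholly above or wholly below the 3 single-mutant levels, and 20.2% of all tested genes did so. Among the 3499 genes called only without the library, 1318 were separated in this way when it was put back. Both sets of genes were chosen by levels in these libraries, so their separation is not a like comparison with that of all tested genes. A change of at least 2-fold was seen for 123 of the 361 genes, 39 higher and 84 lower.

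**Figure D1:**
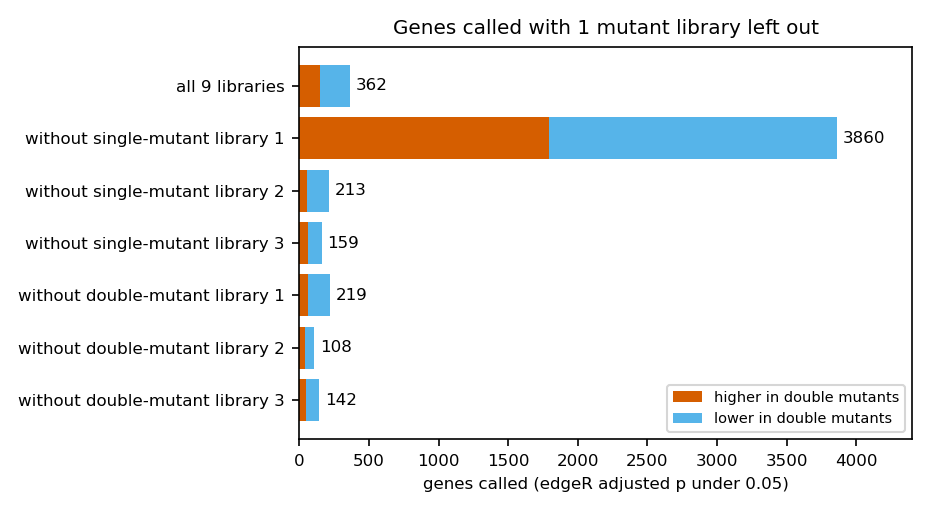
Horizontal bars give the number of genes called between double and single mutants (edgeR adjusted p under 0.05) with all 9 libraries and with each mutant library left out in turn, split into genes higher (orange) and lower (blue) in double mutants. Leaving out single-mutant library 1 gave 3860 calls, and leaving out any other mutant library gave 108 to 219.

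The number of calls moved the other way when any other mutant library was left out. It fell to 213 and 159 without single-mutant library 2 or 3, and to 219, 108 and 142 without double-mutant library 1, 2 or 3. The genes called in the fit with all libraries and in each of the 6 fits that leave out a mutant library numbered 86, of which 32 were higher and 54 lower in double mutants. With single-mutant library 1 as the only single mutant, whose spread is then assumed to be that of the other genotypes, 177 genes were called and 107 of them were among the 362.

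The place of a left-out library was read from genes called without it. On a scale where 0 is the mean log2 level of single-mutant libraries 2 and 3 and 1 is the mean of the double mutants, single-mutant library 1 had a median position of 0.875 over 3860 genes (quartiles 0.618 and 1.106). It lay nearer to the double mutants in 82.2% of them. Treated the same way, from the mean of their own genotype at 0 to the other genotype at 1, single-mutant libraries 2 and 3 had medians of 0.195 (213 genes) and -0.04 (159 genes). Double-mutant libraries 1 to 3 had medians of 0.214, -0.006 and 0.116 over 219, 108 and 142 genes. In genes chosen without it, single-mutant library 1 thus lay close to the level of the double mutants. The genes for each other mutant library were called in fits that include single-mutant library 1. Their medians therefore come from differently chosen genes and are not a like comparison.

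Among the genes higher in double mutants both with and without that library, the largest change with a gene symbol and a mean of at least 1 CPM was in cyp2j20, a cytochrome P450 monooxygenase. Its levels were 2.02, 2.00 and 1.88 CPM in double mutants and 0.114, 0 and 0.114 CPM in single mutants, with a wild-type mean of 2.06 CPM. Double mutants were at the wild-type level and single mutants were at or under the limit of 3 counts. The log2 fold change was 4.56 (SE 0.49, edgeR's adjusted p = 1.25e-04). A second P450 gene, cyp2p9, stood at 21.1, 17.5 and 21.5 CPM in double and 2.23, 1.3 and 1.77 CPM in single mutants, again with double mutants near the wild-type mean of 18.8 CPM. It was higher by 3.50 on the log2 scale (SE 0.17, adjusted p = 7.97e-09) with all libraries and by 3.70 without single-mutant library 1.

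The fixed list of liver proteins had 3 genes higher and 1 lower of 73 tested (5.48%, against 1.67% of all genes), with a median of 0.03, and 15 higher and 13 lower without single-mutant library 1 (38.4%, against 17.6%). The level of hpxa, a hemopexin that binds free haem, was 73.0, 109 and 63.7 CPM in double and 16.4, 9.06 and 21.0 CPM in single mutants, and 5.35 CPM on average in the wild type. The genotypes did not overlap, and the log2 fold change was 2.4 (SE 0.38, edgeR's adjusted p = 0.0397), a call lost under 10 of 17 alternatives, with adjusted p up to 0.113. The alpha-1-antitrypsin gene serpina1 was at 528, 575 and 540 CPM in double and 272, 223 and 252 CPM in single mutants, the single mutants near the wild-type mean of 239 CPM. Its change of 1.14 (SE 0.10, adjusted p = 3.14e-05) kept its call under every alternative. The other called members of this list were ahsg1, which rose by 0.57 (edgeR's adjusted p = 0.027), and serpina1l, which fell and is described below. The call of ahsg1 was lost under 5 of 17 alternatives. The secreted liver protein gene leg1.2, counted in the inflammation list and not in this one, rose by 1.27 on the log2 scale (adjusted p = 0.00300). Its levels were 3.43, 2.49 and 3.2 CPM in single and 6.88, 7.62 and 7.58 CPM in double mutants.

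The other genes named among those that rose ranged in log2 fold change from 1.16 to 1.52. They were ido1 (a tryptophan-degrading dioxygenase), ecrg4b (a secreted peptide precursor), apnl (an actinoporin-like protein), mettl11b (an N-terminal methyltransferase), hsp70.3 and ahsa1a (chaperones), hist1h2a4 (a histone H2A), crygm1 (a lens crystallin), sirt5 (a mitochondrial deacylase) and asb2a.1 (a ubiquitin ligase subunit). Of these, ecrg4b was at 18.5, 17.6 and 18.5 CPM in double and 7.27, 5.98 and 5.88 CPM in single mutants, with a log2 fold change of 1.51 (SE 0.15, edgeR's adjusted p = 7.72e-05). The double mutants lay above the 3 wild-type libraries too, which ranged from 5.44 to 8.13 CPM. Among the 15 genes chosen by highest fold change, hpxa, apnl, mettl11b, hsp70.3, ahsa1a and crygm1 lost their call under at least 3 alternatives. The other 9 kept it under all.

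Among the genes lower in double mutants, adgrf7, an adhesion G protein-coupled receptor gene, had 0 counts in all 3 double-mutant libraries and 203 in the single mutants together. Its levels in single-mutant libraries 1 to 3 were 1.72, 5.09 and 4.97 CPM, and those in the wild type were 1.13, 0.693 and 1.33 CPM. Against 3 counts over the double mutants together, it was at least 70.4-fold lower in them (edgeR's adjusted p = 0.00131). The call was lost in the fit of the mutant libraries alone, at an adjusted p of 0.0560.

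The gene apip encodes the methylthioribulose-1-phosphate dehydratase of the methionine salvage pathway, which recycles methionine from spent S-adenosylmethionine. It had 3 counts in the double and 339 in the single mutants, a ratio of 117.5 (95% counting interval 39.9 to 573). Single-mutant libraries stood at 6.52, 5.15 and 7.88 CPM and wild-type libraries at 11.8, 15.8 and 16.0 CPM, so that the double mutants lay far below both (adjusted p = 6.97e-08 against single mutants). With all libraries apip was the 1 gene of 33 tested in the methionine salvage and polyamine list that edgeR called (3.03%, against 1.67% of all genes). Against 883 of all 21694 tested genes, DESeq2 called 1 of the list higher and 2 lower. Without single-mutant library 1, 14 were lower and 5 higher (57.6%, against 17.6% of all genes), and the list's median log2 fold change was -0.03 with it and -0.04 without it.

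The other genes that fell differed in where the wild type lay. The phospholipase C gene plcd3b stood at 0.119, 0.167 and 0.314 CPM in double and 4.18, 1.48 and 3.77 CPM in single mutants, with the wild type at 5.80 CPM on average, a log2 fold change of -3.91 (SE 0.47, edgeR's adjusted p = 5.16e-04). The transporter gene slc47a2.2, which exports organic cations, had the opposite arrangement: 0.712, 0.445 and 0.314 CPM in double, 5.72, 1.6 and 3.25 CPM in single mutants and a wild-type mean of 0.254 CPM. For plcd3b both mutant genotypes lay below the wild type, the double mutants furthest, and for slc47a2.2 the single mutants lay above it and the double mutants overlapped it. The scaffold gene lin7b, the ferritin-like fthl30 and the cholesterol hydroxylase gene cyp46a1.2 fell by 2.4, 2.28 and 1.94 on the log2 scale, with adjusted p of 3.93e-04, 0.00276 and 3.47e-04. The call of slc47a2.2 was lost under 4 of 17 alternatives.

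**Figure D2:**
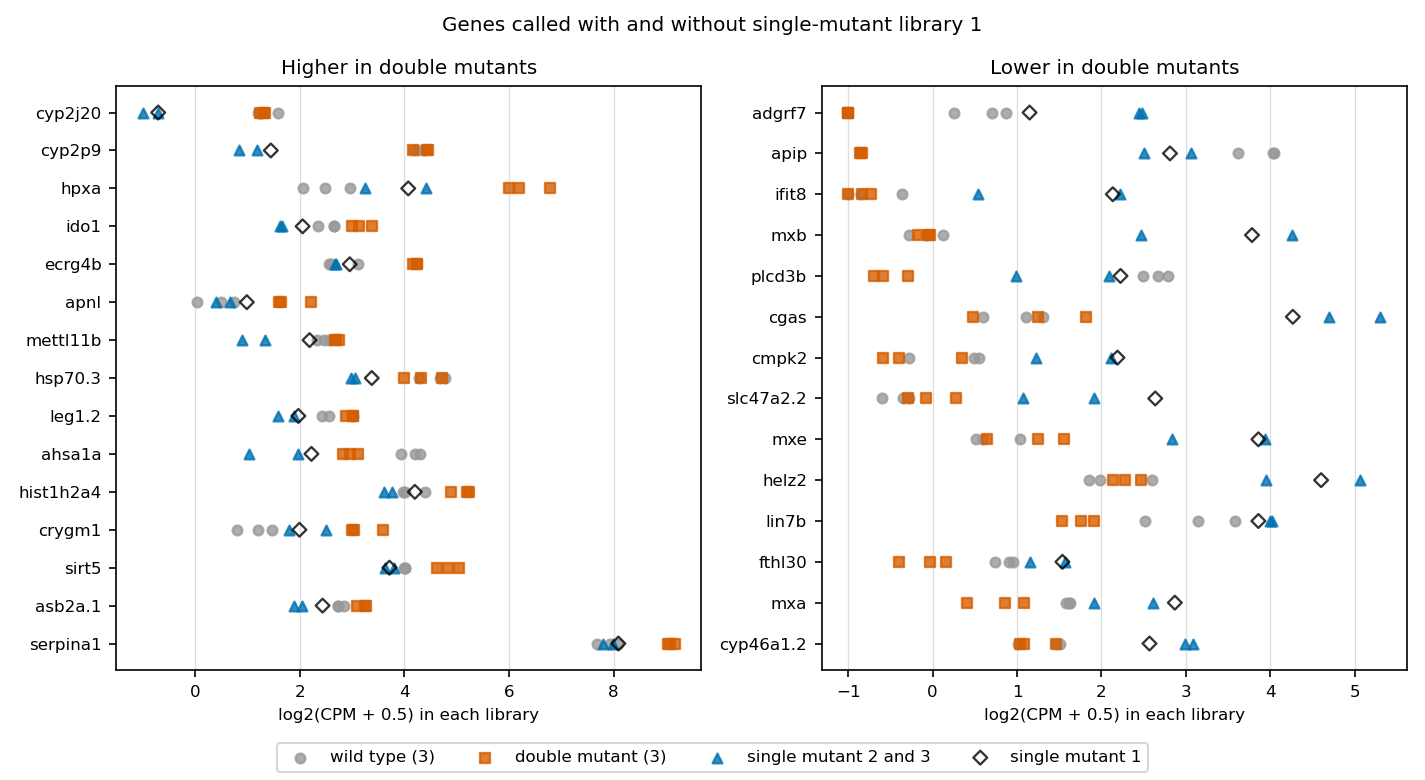
Levels of the 15 genes with the highest (left) and 14 of the 15 with the lowest (right) log2 fold change among genes called with and without single-mutant library 1, as log2(CPM + 0.5) on the x axis, 1 point per library. In each gene the 3 double-mutant squares lie wholly to one side of the 2 single-mutant triangles and of single-mutant library 1 (open diamond), as the choice of genes requires. Grey circles mark the wild type.

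Genes of the interferon response were lower in double mutants. Of 44 tested interferon-stimulated genes, 14 fell and none rose (31.8% called, against 1.67% of all genes), and the list's median log2 fold change was -0.63 beside 0.005 over all tested genes. At an unadjusted p under 0.05, 26 were lower and 4 higher, against 3894 of all 21694 tested genes. DESeq2 and limma-voom called 21 and 12 lower and none higher, against 883 and 321 of all tested genes. The genes that fell include those for the sensing of DNA in the cytosol (cgas and tmem173, the STING gene), signalling (stat2 and irf9), antiviral effectors (mxa, mxb, mxe, ifit8, ifit12 and pkz), a nucleotide kinase (cmpk2) and regulators (trim25 and usp18). In bulk RNA of whole larvae, fewer cells of a type and less RNA per cell cannot be told apart.

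The DNA sensor gene cgas was at 3.03, 0.890 and 1.88 CPM in double and 18.8, 25.4 and 39.1 CPM in single mutants, while the wild type averaged 1.54 CPM. Double mutants lay around the wild-type level and single mutants above it without overlap. The log2 fold change was -3.85 (SE 0.43, edgeR's adjusted p = 0.00784) with all libraries and -4.07 (adjusted p = 5.66e-04) without single-mutant library 1. The call was lost without double-mutant library 3, at an adjusted p of 0.0544. The gene tmem173 was at 7.18, 4.28 and 4.97 CPM in double and 10.6, 10.5 and 17.2 CPM in single mutants, a log2 fold change of -1.23 (SE 0.22, adjusted p = 0.0132), a call lost under 3 of 17 alternatives.

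Antiviral GTPases of the Mx family differed in their level beside the wild type. The level of mxb was 0.475, 0.389 and 0.471 CPM in double, 13.3, 5.03 and 18.6 CPM in single mutants and 0.450 CPM on average in the wild type. That of mxe was 2.43, 1.06 and 1.88 CPM in double and 14, 6.63 and 14.8 CPM in single mutants. Their log2 fold changes were -4.77 (SE 0.56, edgeR's adjusted p = 0.00572) and -2.73 (SE 0.36, adjusted p = 0.00521), and the call of mxb was lost under 3 of 17 alternatives, with adjusted p up to 0.133. The level of mxa, which fell by 2.05, was 0.831, 1.61 and 1.31 CPM in double and 6.81, 3.26 and 5.60 CPM in single mutants, with the wild type between them at 2.48 to 2.58 CPM. Reads shared between copies of such a family could be split by the counting, so values of single mx genes are uncertain. The gene ifit8 had 3 counts in double and 157 in single mutants, a ratio of 54.4 (95% counting interval 18.3 to 267), and helz2, an interferon-induced helicase gene outside the list, fell by 2.43. The call of ifit8 was lost under 4 of 16 alternatives and those of helz2 and cmpk2 under 2 of 17.

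The signalling genes changed less. The level of stat2 was 37.0, 29.3 and 35.6 CPM in double and 71.9, 60.9 and 82.6 CPM in single mutants, a log2 fold change of -1.08 (SE 0.13, edgeR's adjusted p = 9.74e-04), with wild-type libraries at 33.7 to 44.8 CPM. The gene trim25, whose product is a ubiquitin ligase that acts in RNA sensing, was at 20.6, 16.0 and 18.4 CPM in double and 38.2, 31.5 and 35.3 CPM in single mutants. Here the single mutants lay at or just below the wild-type range of 36.8 to 38.4 CPM, and the double mutants well below it. Its log2 fold change was -0.93 (SE 0.10, adjusted p = 1.74e-04). Well-known effectors, chosen after their values were seen, missed the threshold: isg15 was at 4.1, 2.34 and 3.35 CPM in double and 38.2, 8.47 and 29.5 CPM in single mutants (adjusted p = 0.0879), and rsad2 had an adjusted p of 0.128. In both, single-mutant library 2 was the lowest of its genotype.

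Single-mutant library 1 lay with its own genotype in this list. Over the 20 members called without it, its median position was -0.17. It lay nearer to the double mutants in 2 of them, against 82.2% of all genes called without it. The median level of the 44 genes, relative to the wild-type mean, was 1.18, 0.69 and 0.85 on the log2 scale in single-mutant libraries 1 to 3 and 0.26, -0.06 and 0.21 in the double mutants. Without that library 18 members were lower and 2 higher (mxf and gbp4, named after their values were seen; 45.5% called, against 17.6% of all genes), with a median of -0.54. Leaving out any other mutant library left between 6 and 18 members called, the fewest without double-mutant library 2. In those fits calls over all genes fell from 362 to between 108 and 219.

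Enzymes of cholesterol synthesis were higher in double than in single mutants, and both lay below the wild type. Of 36 tested genes of the SREBP2 list, 9 rose and 1 fell (27.8%, against 1.67% of all genes), with a median log2 fold change of 0.31. The 9 that rose encode enzymes from the start to the end of the pathway: hmgcs1, hmgcra, fdps, sqlea, msmo1, nsdhl, hsd17b7, ebp and sc5d. Squalene epoxidase, sqlea, was at 52.0, 56.4 and 52.9 CPM in double and 28.9, 24.5 and 20.2 CPM in single mutants, with the wild type at 132 to 164 CPM. Its log2 fold change was 1.13 (SE 0.12, edgeR's adjusted p = 1.39e-04). The synthase gene hmgcs1 was at 243, 297 and 257 CPM in double and 151, 109 and 105 CPM in single mutants, a log2 fold change of 1.13 (SE 0.14, adjusted p = 0.00572).

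Without single-mutant library 1, 21 members of the sterol list were higher and 6 lower (75%, against 17.6%). That library lay between the genotypes in this list, at a median position of 0.54 over the 27 members called without it. The demethylase gene cyp51 was among those added, at 134, 163 and 145 CPM in double and 99.6, 59.5 and 62.5 CPM in single mutants. All 3 single mutants lay below the double mutants, and the adjusted p was 0.0566 with all libraries and 3.29e-09 without that one. Leaving out each other mutant library left 5 to 9 members called, in fits where calls over all genes fell to between 108 and 219.

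Of 60 tested genes of the heat shock list, 7 rose and none fell (11.7%, against 1.67% of all genes), with a median log2 fold change of 0.06. Without single-mutant library 1, 16 were higher and 4 lower (33.3%, against 17.6%). With all libraries, at an unadjusted p under 0.05, 17 were higher and 4 lower, against 3894 of all 21694 tested genes. DESeq2 and limma-voom called 9 and 5 higher and none lower, against 883 and 321 of all tested genes. The inducible chaperone gene hsp70.3 was at 25.9, 19.6 and 15.5 CPM in double and 9.90, 7.40 and 7.82 CPM in single mutants, with the wild type at 18.9 to 26.8 CPM (log2 fold change 1.27, SE 0.20, edgeR's adjusted p = 0.0119). Its neighbour in name, hsp70.2, the gene called only with single-mutant library 1, was at 15.5, 14.2 and 11.7 CPM in double and 4.69, 4.38 and 5.88 CPM in single mutants. It rose by 1.46 (SE 0.27, adjusted p = 0.0274), and by 1.42 (adjusted p = 0.0501) without that library. Its call was lost under 9 of 17 alternatives, among them limma-voom, the replicate block and each mutant library left out, and that of hsp70.3 under 3. Reads can be shared between these hsp70 copies. The fewest heat shock genes called with another mutant library left out was 0, without double-mutant library 2. In that fit 108 of all genes were called.

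More markers of gut and pancreas were called higher than lower. Of 53 tested enterocyte genes 6 rose and 1 fell (13.2%, against 1.67% of all genes), and without single-mutant library 1, 11 were higher and 6 lower (32.1%, against 17.6%). Of 38 exocrine pancreas genes 3 rose (c6ast3, amy2a and cpa4) and none fell (7.89%, against 1.67%). At an unadjusted p under 0.05, 10 were higher and none lower, against 3894 of all 21694 tested genes. DESeq2 and limma-voom called 5 and 3 higher, against 883 and 321 of all tested genes. When single-mutant library 1 was left out, 5 pancreas genes were higher and none lower (13.2%, below the 17.6% of all genes). The medians were 0.095 and 0.083 on the log2 scale. The protease gene c6ast3 was at 23.0, 28.5 and 22.5 CPM in double and 14.9, 13.0 and 15.5 CPM in single mutants, with wild-type libraries from 17 to 21.1 CPM. Its log2 fold change was 0.77 (SE 0.12, edgeR's adjusted p = 0.00513). Without 1 other mutant library 0 to 4 enterocyte genes and 1 or 2 pancreas genes were called. In those fits calls over all genes fell from 362 to between 108 and 219.

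Copies of one gene that lie side by side moved in opposite directions. While serpina1 rose, its neighbour serpina1l was at 278, 261 and 253 CPM in double and 607, 430 and 521 CPM in single mutants, a log2 fold change of -0.98 (SE 0.10, edgeR's adjusted p = 2.34e-04). The meprin protease gene mep1a.1 rose by 0.50 (adjusted p = 0.00818) and its neighbour mep1a.2 fell by 0.64 (adjusted p = 0.0227), calls lost under 2 and 4 of 17 alternatives. A further neighbouring pair, chosen after its values were seen, was cyp2p6, which rose by 0.48, and cyp2p7, which fell by 0.43. How the counting split reads between such near copies is not given in the labels, so each value is uncertain.

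Neighbours also moved together. The embryonic globin genes hbae1.1 and hbbe1.2 fell by 1.69 (SE 0.21) and 1.33 (SE 0.12) on the log2 scale, with edgeR adjusted p of 0.00572 and 9.71e-05. The level of hbbe1.2 was 71.7, 71.5 and 71.7 CPM in double and 162, 213 and 166 CPM in single mutants, both below the wild type at 456 to 601 CPM. These were the 2 called genes of 38 tested in the erythrocyte list (5.26%, against 1.67% of all genes). Without single-mutant library 1, 2 of the list were higher and 4 lower (15.8%, below the 17.6% of all genes). The acute-phase genes crp2 and crp3 fell by 0.93 and 1.12, and crp2 was at 28.2, 31.4 and 27.5 CPM in double and 60.4, 46.6 and 58.6 CPM in single mutants. The call of crp3 was lost under 8 of 17 alternatives. In their list of inflammation, complement and acute phase 2 of 60 genes rose (hpxa and leg1.2) and 2 fell (6.67%, against 1.67% of all genes), with a median of -0.06, and without single-mutant library 1, 4 were higher and 9 lower (21.7%, against 17.6%). Globin and crp genes are families too, and the split of reads between their members is uncertain. In all, 23 pairs of genes called both ways were direct neighbours among the tested genes. These include pairs that moved in opposite directions, such as serpina1 and serpina1l. The share of such pairs over all tested genes was not worked out.

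Part of the difference was gathered on a single chromosome, chosen after its values were seen because it held the most called genes. Gene order was read from the RefSeq annotation of GRCz12tu, a later assembly than the GRCz11 build that the submitters' processing notes name, so no position is given. On this chromosome 43 of 774 tested genes were called (5.56%), against 272 of 17591 (1.55%) on the other 24, which ranged from 0.287% to 3.24%. Without single-mutant library 1 the difference was smaller, at 24.8% on this chromosome and 18.7% on the other 24, which ranged from 15.5% to 21.4%. It is not the chromosome of the fam177a1 row. It holds cyp2j20, cyp2p9, cyp2p6, cyp2p7, cyp46a1.2, adgrf7, sirt5, leg1.2, asb2a.1, ahsa1a and the serpina1 and mep1a pairs, and 17 of the 89 placed genes that were called both ways and changed at least 2-fold. Of its called genes 24 were higher and 19 lower in double mutants. Whether this chromosome carries the second mutated gene was not tested.

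Genes of the Golgi, the compartment of the targeted protein, were called about as often as all genes. Of the list's 100 tested genes, which cover stacking proteins, vesicle tethers and coats, 2 were called, against 1.67% of all genes, and the median log2 fold change was -0.001. The gene that fell was rab43, a small GTPase of membrane traffic, at 23.3, 22.7 and 27.7 CPM in double and 32.2, 37.8 and 41.7 CPM in single mutants (log2 fold change -0.60, SE 0.11, edgeR's adjusted p = 0.0108). The gene that rose was vps52, a subunit of complexes that tether vesicles returning to the Golgi, by 0.48 (adjusted p = 0.0332). The call of vps52 was lost under 9 of 17 alternatives, with adjusted p up to 0.176, and that of rab43 without double-mutant library 2. Without single-mutant library 1, 9 of the 100 were called, against 17.6% of all genes. Of 117 tested genes of neurons and synapses none was called by edgeR, DESeq2 or limma-voom. At an unadjusted p under 0.05, 3 were higher and 4 lower, against 3894 of all 21694 tested genes. Of the neuron genes, 5 were lower and 1 higher without single-mutant library 1 (5.13%, against 17.6% of all genes).

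The 3499 genes called only without single-mutant library 1 included members of lists described above, such as cholesterol synthesis and heat shock, and members of other lists. The gene with the smallest adjusted p among those lower was slc43a2a, an amino acid transporter gene, at 20.5, 17.6 and 20.9 CPM in double mutants and 18.3, 129 and 146 CPM in single-mutant libraries 1 to 3. The first single mutant lay within the double-mutant range, and the wild type at 12.5 to 13.7 CPM. The log2 fold change was -2.81 without that library (edgeR's adjusted p = 4.26e-15) and -2.32 with it (adjusted p = 0.179). The transcription factor gene foxq1a was the first of those higher, at 62.8, 61.3 and 59.7 CPM in double and 71.5, 10.9 and 9.71 CPM in single mutants. Its log2 fold change was 2.57 without the library (adjusted p = 1.05e-13) and 0.99 with it (adjusted p = 0.551).

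The next genes by this rule behaved alike. Those lower were hif1al and pfkfb3 and pfkfb4b, a hypoxia-inducible factor gene and genes of enzymes that set the pace of glycolysis, and nfe2l1a, a regulator of proteasome genes. Those higher were klf4, klf2b and nr4a1, immediate early transcription factors, and mcm5, a subunit of the DNA replication helicase. Levels of pfkfb3 were 49.1, 47.1 and 49.7 CPM in double and 40.9, 170 and 181 CPM in single mutants. Those of mcm5 were 103, 101 and 100 CPM in double and 94.6, 46.1 and 46.0 CPM in single mutants, all below the wild type at 180 to 187 CPM. With all libraries, the lowest edgeR adjusted p among the 10 was 0.174, for nfe2l1a.

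**Figure D3:**
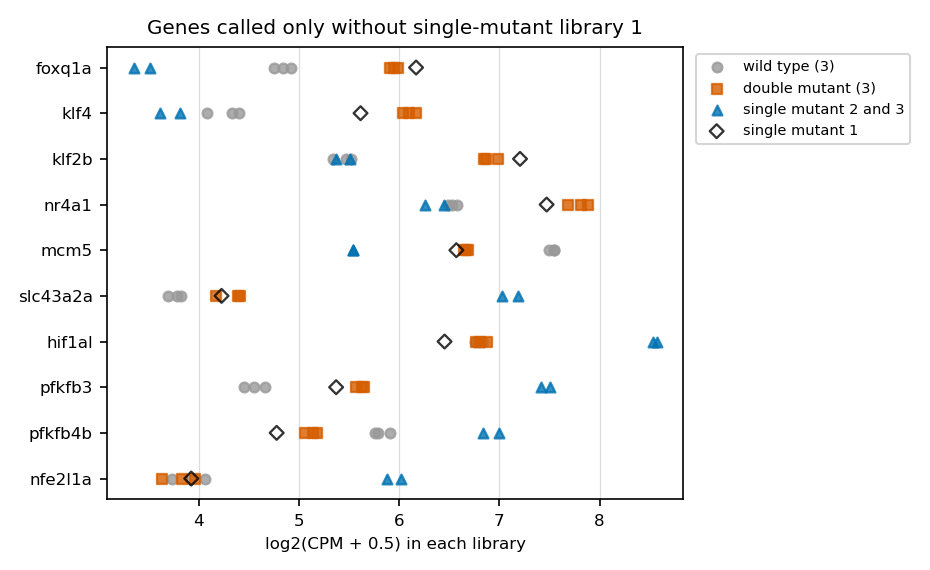
Levels of the 10 genes with the smallest adjusted p among those called only without single-mutant library 1, 5 higher and 5 lower in double mutants, as log2(CPM + 0.5) on the x axis, 1 point per library. The open diamond of single-mutant library 1 lies by the double-mutant squares in every gene, and single-mutant libraries 2 and 3 (triangles) lie apart. The choice of genes favours this pattern. The gene slc43a2a was at 18.3 CPM in library 1 and at 129 and 146 CPM in the other single mutants.

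More genes of the circadian clock and of fasting were called without single-mutant library 1 than with it, and the difference was not itself tested. Of 51 tested clock genes, 24 were lower and 1 higher without that library (49%, against 17.6% of all genes). With it edgeR called 1 lower (namptb) and 1 higher (nr1d1), 3.92% against 1.67% of all genes. Under 9 of 17 alternatives nr1d1 lost its call, and namptb kept its own under all. DESeq2 called 3 lower and 1 higher, against 883 of all 21694 tested genes. At an unadjusted p under 0.05, 10 were lower and 2 higher, against 3894 of all tested genes. Single-mutant library 1 lay nearer to the double mutants in 24 of the 25 (against 82.2% of all genes called without it), at a median position of 1.22. The nuclear receptor gene rorcb was at 10.7, 11 and 9.31 CPM in double and 7.67, 38.3 and 40.3 CPM in single mutants, with the wild type at 32.8 to 44.1 CPM. Of 43 genes of fasting, gluconeogenesis and muscle atrophy, 24 were lower and 2 higher without it (60.5%, against 17.6%). With it none was called by edgeR or limma-voom, and 7 were called lower by DESeq2, against 883 of all tested genes. At an unadjusted p under 0.05, 16 were lower and 1 higher, against 3894 of all tested genes. The insulin-like growth factor binding protein gene igfbp1b, a marker of low insulin, was at 8.25, 11.7 and 9.73 CPM in double and 9.44, 47.1 and 40.3 CPM in single mutants.

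Among glucocorticoid receptor targets, 20 of 37 tested were lower and none higher without single-mutant library 1 (54.1%, against 17.6% of all genes). That library lay nearer to the double mutants in all 20 (against 82.2% of all genes called without it), at a median position of 1.24. With it none was called by edgeR or limma-voom, and 4 were lower by DESeq2, against 883 of all 21694 tested genes. At an unadjusted p under 0.05, 8 were lower and none higher, against 3894 of all tested genes. The classic target fkbp5, a co-chaperone of the receptor, was at 166, 164 and 208 CPM in double and 80.3, 546 and 586 CPM in single mutants, with the wild type at 305 to 331 CPM between them. Single-mutant library 1 was thus the lowest of all 9 libraries in fkbp5. Of 47 hypoxia response genes, 16 were lower and 2 higher without the library (38.3%, against 17.6%). In all 18 the library lay nearer to the double mutants, against 82.2% of all genes called without it. With it edgeR and limma-voom called none and DESeq2 1 lower, against DESeq2's 883 of all tested genes. At an unadjusted p under 0.05, 12 were lower and 4 higher, against 3894 of all tested genes.

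The calls among immediate early genes and genes of cell division were mostly of genes higher in double mutants, and with all libraries they were about as frequent as, or rarer than, among all genes. Of 59 tested immediate early genes, 21 were higher and 5 lower without single-mutant library 1 (44.1%, against 17.6% of all genes). With it edgeR called 1 higher, nr4a2a (1.69%, against 1.67%), a call lost under 6 of 17 alternatives. DESeq2 called 4 higher and 2 lower, against 883 of all 21694 tested genes. The activity-dependent transcription factor gene npas4a was at 16.9, 20.2 and 15.4 CPM in double and 15.8, 3.73 and 4.63 CPM in single mutants, with the wild type at 13.0 to 18.4 CPM. Of 95 tested genes of DNA replication and cell division, 40 were higher and none lower without single-mutant library 1 (42.1%, against 17.6%). That library lay nearer to the double mutants in all 40, against 82.2% of all genes called without it. With it 1 was called by edgeR, mcm4 (1.05%), and 5 higher by DESeq2, against DESeq2's 883 of all tested genes. At an unadjusted p under 0.05, 23 were higher and none lower, against 3894 of all tested genes. The helicase gene mcm4 was at 166, 173 and 171 CPM in double and 149, 108 and 120 CPM in single mutants, a log2 fold change of 0.43 (SE 0.10, adjusted p = 0.0331) with all libraries and 0.57 without that one, a call lost under 9 of 17 alternatives.

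**Figure D4:**
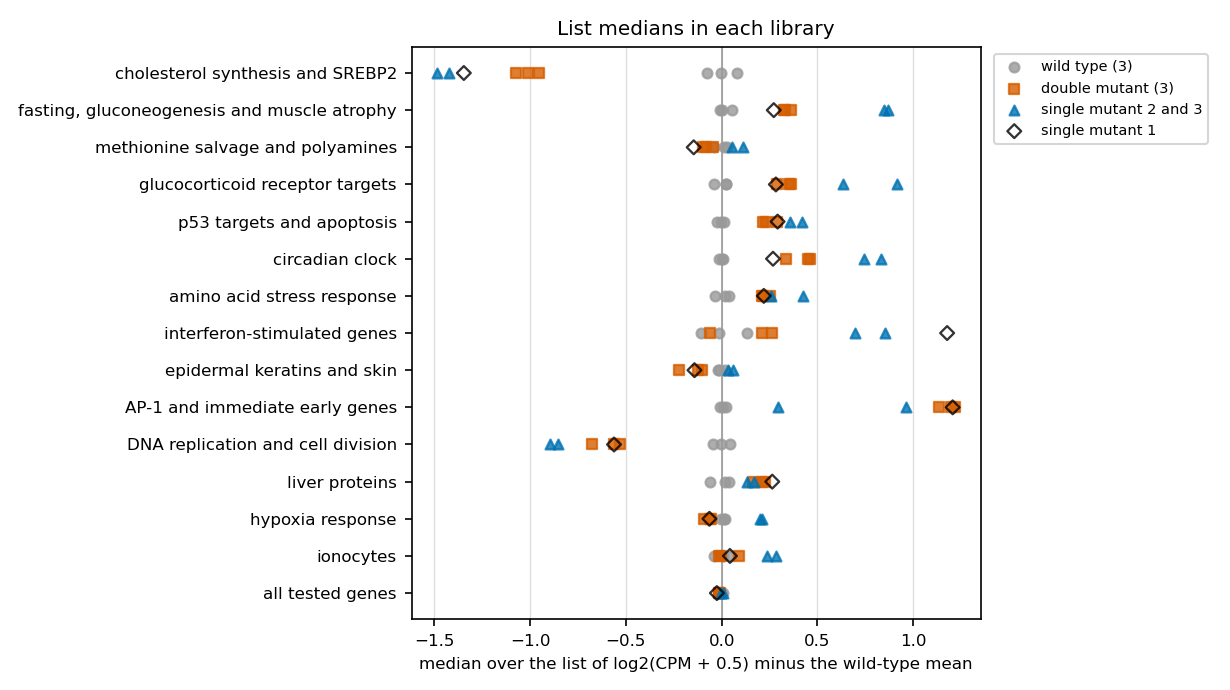
For the 14 lists of at least 20 tested genes with the largest share called without single-mutant library 1, the x axis gives the median over the list of log2(CPM + 0.5) minus the wild-type mean, 1 point per library, and the lowest line gives all tested genes. Single-mutant library 1 (open diamond) lies by the double mutants (squares) for the clock, fasting and glucocorticoid lists, and furthest from them for interferon-stimulated genes, at 1.18 against -0.06 to 0.26.

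Of 70 tested lysosome and autophagy genes, edgeR called 4 lower with all libraries (5.71%, against 1.67% of all genes). These were sqstm1, tfe3a, mcoln1a and ctsla. Against 883 and 321 of all 21694 tested genes, DESeq2 called 12 of the list lower and limma-voom 1. In the fit without single-mutant library 1, 25 were lower and 1 higher, where 17.6% of all genes were called, and the medians were -0.15 and -0.17. The autophagy receptor gene sqstm1 was at 10.9, 10.29 and 9.31 CPM in double and 12.9, 21.9 and 22.9 CPM in single mutants, with the wild type at 9.14 to 11 CPM. All 3 single mutants lay above the double mutants, library 1 by the least, and the log2 fold change was -0.92 (SE 0.18, edgeR's adjusted p = 0.0238). Leaving out any other mutant library left none of the 4 called, in fits where calls over all genes fell to between 108 and 219. Of 55 tested p53 targets and apoptosis genes, mdm2, the gene of the ligase that degrades p53, fell by 0.54 (adjusted p = 0.00654) and was the 1 gene called by edgeR with all libraries (1.82%, against 1.67% of all genes). DESeq2 called 8 lower and 2 higher, against 883 of all tested genes. Without single-mutant library 1 edgeR called 20 lower and 8 higher (50.9%, against 17.6%).

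**Figure D5:**
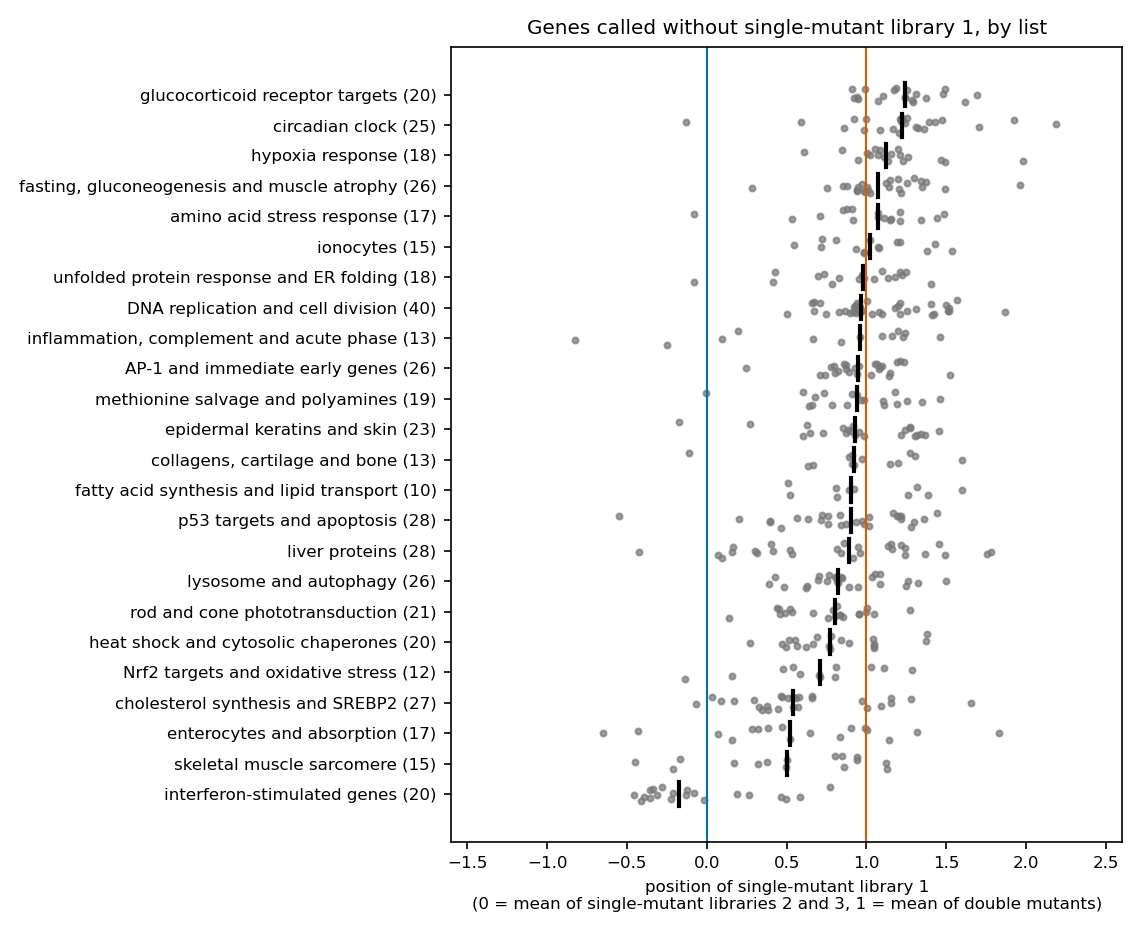
Each grey point is a gene called without single-mutant library 1, in the 24 lists with at least 10 such genes (number in brackets), and the x axis gives where that library lies between the mean of single-mutant libraries 2 and 3 (0, blue line) and the mean of the double mutants (1, orange line). Black bars are list medians, which run from -0.17 for interferon-stimulated genes to 1.24 for glucocorticoid receptor targets. Heights within a list are spread only to show the points.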

How the data were processed

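Per the submitters' processing notes, reads were handled with cutadapt, STAR and featureCounts on GRCz11, and DESeq2 is named; the sources used here give no versions or settings. The deposited table holds raw counts per gene name, 28802 rows, with a gene length column (not used in tests); no column of per-sample values was left unused (0). Wild-type columns are headed AB and were assigned to the wild type as a group.

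Counts were tested with edgeR 4.0.16 (R 4.3.3): filterByExpr by genotype, TMM scaling, robust quasi-likelihood F test of double minus single mutants in a fit of all 9 libraries, Benjamini-Hochberg adjustment over all tested genes, called under 0.05. The same fit was run without single-mutant library 1, leaving 5 residual degrees of freedom in place of 6. Levels are CPM on TMM-scaled totals; log2 levels add 0.5 CPM. Intervals (95%) and the limit of 3 counts cover counting error only. The fitting steps were tested on simulated counts with the same spread for every gene and no library that stood apart. That test therefore does not bear on the effect of single-mutant library 1. Alternatives were DESeq2 1.42.0 (Wald test and size factors), limma-voom (limma 3.58.1), other filters and scalings, the mutant libraries alone, a replicate block and each library left out.

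The comparison, the 39 gene lists (2116 symbols, 2003 matched to a row, 1908 tested) and the tests were chosen with earlier results of these data known, so lists are described by counts and medians. Named genes were the targeted row, the 15 with the highest and 15 with the lowest fold change among genes called with and without single-mutant library 1 (mean of at least 1 CPM, a gene symbol rather than a clone name), up to 5 a direction by adjusted p called only with or only without it, and up to 4 called members a list. Some genes that these rules name are not reported here.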

Additional observations from a re-analysis of the deposited data

How the results depend on the processing

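Against 362 genes called with all libraries, the count was 883 with DESeq2's Wald test, 184 with the mutant libraries alone, 4215 with the mutant libraries alone and without single-mutant library 1, and 177 with the single mutants reduced to library 1 (chosen after seeing the data); the cause was not tested. The 361 genes called with and without that library numbered 833 with DESeq2 and 184 with the mutant libraries alone. Leaving out 1 library gave 108 (without double-mutant library 2) to 3860 calls (without single-mutant library 1), and 108 to 294 called both ways: 208 and 150 without single-mutant libraries 2 and 3, and 219, 108 and 142 without double-mutant libraries 1 to 3. With no filter on low counts 507 genes were called and with a stricter one 342; limma-voom called 321 and DESeq2 size factors 359. Same-numbered mutant libraries deviated together only weakly (r = 0.042, 0.076 and 0.036 over genes), under the 0.1 set for pairing, although each correlated best with its own number; with a replicate block 644 genes were called, 623 of them with and without single-mutant library 1. The median position of that library ranged from 0.871 to 0.877. Of 82 named genes called with all libraries, 32 kept the call under all 17 alternative settings, and of 3296 values of named genes none reversed, 282 lost and 155 gained a call. Depth limits genes near 0.178 CPM.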

Other observations

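Rows known by clone names, chosen after their values were seen, held some of the largest differences called with and without single-mutant library 1. The row si:dkey-15h8.17 had 119 counts in the double mutants and 1 in the single mutants, a ratio of 114.4 (95% counting interval 20.1 to 4556). The rows CR388157.1, si:dkey-201l21.2 and zgc:153383 had 0 counts in the double mutants and were at least 45.1-fold, 56.2-fold and 16.3-fold lower there, against 3 counts over the group.

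Genes of the B and T lymphocyte list, of heart muscle, of pigment cells and of mitochondrially encoded transcripts had no member called with all libraries by edgeR. These lists had 21, 23, 33 and 13 tested genes. At an unadjusted p under 0.05, 4, 3, 5 and 1 of them were higher and 1, 0, 0 and 3 lower. Over all 21694 tested genes, 3894 passed that threshold. DESeq2 called 1 lymphocyte and 1 pigment cell gene, against 883 of all tested genes, and limma-voom none. Without single-mutant library 1, edgeR called 4, 4, 3 and 1 members of these lists (19%, 17.4%, 9.09% and 7.69%), against 17.6% of all genes. Of those called, 3, 3, 3 and 0 were higher and 1, 1, 0 and 1 lower. Of 79 tested cytosolic ribosomal protein genes 1 was called, rpl12 (1.27%, against 1.67% of all genes). Without single-mutant library 1, rpl12 was again the 1 gene called (1.27%, against 17.6% of all genes). This gene stood at 932, 935 and 951 CPM in double and 1175, 1126 and 1199 CPM in single mutants. It changed by -0.31 on the log2 scale (SE 0.07, adjusted p = 0.0227 by edgeR), and its call was lost under 4 of 17 alternatives. In the list of rod and cone phototransduction, rho, the rod opsin, fell by 0.32 and gnat1, the rod transducin, by 0.40 (adjusted p = 0.0256 and 0.0431), calls lost under 3 and 8 of 17 alternatives. They were the 2 genes of 74 tested that edgeR called (2.7%, against 1.67% of all genes). DESeq2 called 2 lower and 1 higher, against 883 of all tested genes. Without single-mutant library 1 edgeR called 15 lower and 6 higher (28.4%, against 17.6%).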
